A study of Mus musculus with 24 samples.

Results

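Described here are 6 genes that encode DNA-binding regulators of helper T cell fate and their partner: Tbx21 (T-bet), Eomes (eomesodermin), Runx1, Runx2, Runx3 and Cbfb. They were taken by symbol from tables of 23420 genes, and all 6 were among the 12584 genes with enough counts to be tested. The tables come from bulk RNA sequencing of mouse CD4 T cells in 24 libraries, 6 for each of 4 cell states. Every group carried the genotype labelled OT2Nur77GFP+/- on a C57BL/6 background. OT-II is a transgenic T cell receptor for an ovalbumin peptide, and in the Nur77-GFP reporter a fluorescent protein follows the promoter of Nr4a1, a gene induced by receptor signalling. Naive cells were isolated from spleen, and activated naive cells were stimulated for 6 hours with a stimulus that the labels do not name. TH1 effector cells were grown for 5 days under conditions for the TH1 helper type, whose hallmark is interferon-gamma. Reactivated TH1 cells were such cells after a further 6 hours with macrophages carrying antigen. Macrophages without antigen were not used, so what the antigen did and what the macrophages did cannot be told apart. Whether libraries with the same label represent separate mice or cultures is not stated, and p-values therefore measure the spread between these libraries, which may be technical. No animal age is given in the labels.

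T-bet and Eomes belong to the T-box family. T-bet is the lineage-defining factor of TH1 cells, is induced by interferon-gamma and interleukin-12 signals, and acts on Ifng together with Runx3. Eomes is best known in CD8 T cells and natural killer cells, where it works beside T-bet. Runx1, Runx2 and Runx3 share the Runt DNA-binding domain, and each binds DNA stably only as a heterodimer with CBF-beta, the product of Cbfb. Runx1 is the family member usually described in resting CD4 T cells, Runx3 in cytotoxic and TH1 cells, and Runx2 is best known from bone.

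In mm10 coordinates of the GENCODE M21 annotation, Tbx21 (ENSMUSG00000001444.2) lies on chromosome 11 from 97098071 to 97115331 on the minus strand, and Eomes (ENSMUSG00000032446.14) on chromosome 9 from 118478212 to 118486132 on the plus strand. Runx1 (ENSMUSG00000022952.17) lies on chromosome 16 from 92601466 to 92826149, minus strand, and Runx2 (ENSMUSG00000039153.16) on chromosome 17 from 44495987 to 44814797, minus strand. Runx3 (ENSMUSG00000070691.10) lies on chromosome 4 from 135120652 to 135177990, plus strand, and Cbfb (ENSMUSG00000031885.14) on chromosome 8 from 105170674 to 105217989, plus strand. Antisense genes share 118 exon bases with Eomes, 106 with Runx1 and 519 with Runx2. The strand setting of the authors' counting is not given in the sources used here, and reads from those antisense genes cannot be separated from the values of Eomes, Runx1 and Runx2.

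RUNX proteins are known to act on the promoters of RUNX genes themselves, so the promoters of the members were searched for the RUNX letters TGTGGT and TGCGGT on both strands, in the 250 bases before each RefSeq start (GRCm38.p6). Matches of these letters are a description, not binding sites. Among 8 start sites of the 6 genes, 2 windows held them: the first start site of Runx3 and the start site of Runx2. Both windows are shown 5′ to 3′ on the gene's strand, ending at the base before the start, with the matches in capitals.
Runx3, first start site, chr4:135120395-135120644, + strand: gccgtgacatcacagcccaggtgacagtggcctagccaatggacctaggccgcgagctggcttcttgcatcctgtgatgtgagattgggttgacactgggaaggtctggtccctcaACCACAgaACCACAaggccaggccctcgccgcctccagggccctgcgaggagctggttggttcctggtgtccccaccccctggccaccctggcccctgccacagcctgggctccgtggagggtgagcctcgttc
Runx2, chr17:44814628-44814877, - strand: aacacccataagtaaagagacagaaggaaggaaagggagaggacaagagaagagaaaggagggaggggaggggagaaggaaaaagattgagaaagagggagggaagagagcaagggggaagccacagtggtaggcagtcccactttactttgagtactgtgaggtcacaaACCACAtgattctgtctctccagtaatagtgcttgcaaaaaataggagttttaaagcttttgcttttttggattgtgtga
The Runx3 window held ACCACA, the reverse complement of TGTGGT, at 134 and at 126 bases before the start, and the Runx2 window held it at 80 bases before. No window of a member held the T-box letters GGTGTGA or GGTGTTA on either strand. Over 32851 promoters of the same length, 18.6% held the RUNX letters and 4.62% the T-box letters. The deposited counts are per gene and do not separate the 2 start sites of Runx1 or of Runx3.

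Counts given to genes ranged from 18457653 to 34262645 per library. The libraries came from 2 sequencing runs by the flow cell in their names, with numbers 1 to 3 of every group in the first and 4 to 6 in the second. The CD4 T cell markers were present in every group: none of 14 genes was at 0, and their summed level ran, in CPM (counts per 1e+06 counts in genes, scaled by TMM factors), from 6293 to 6941 for naive libraries, from 5899 to 7128 for activated naive, from 4550 to 4846 for TH1 effector and from 4633 to 5167 for reactivated TH1 libraries. In bulk RNA a change in the number of cells that express a gene and a change in RNA per cell cannot be told apart, which holds for every level below.

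Tbx21 was nearly silent in naive cells and higher in each of the other 3 states. Naive libraries 1 to 6 had 0.0738, 0.205, 0.0712, 0.204, 0.0480 and 0.0939 CPM of Tbx21, from 1 to 6 counts per library and 17 in all. Activated naive libraries had 38.3, 38.0, 47.7, 39.2, 35.2 and 31.5 CPM, TH1 effector libraries 106, 90.3, 83.1, 99.6, 111 and 102 CPM, and reactivated TH1 libraries 240.99, 208, 172, 213, 183 and 143 CPM. No library of one state reached the Tbx21 level of a library of another state. Means were 0.116 ± 0.0702, 38.3 ± 5.41, 98.8 ± 10.4 and 193 ± 34.8 CPM (SD, n = 6 each). In the model, Tbx21 rose 318-fold from naive to activated naive cells (log2 8.31, SE 0.27, adjusted p = 1.19e-21) (8.39 in run 1 and 8.24 in run 2). TH1 effector cells exceeded activated naive cells by log2 1.37 (adjusted p = 1.31e-11; 1.21 and 1.53 by run). Reactivation raised Tbx21 a further 1.95-fold (log2 0.96, SE 0.27, adjusted p = 9.98e-09; 1.12 and 0.80 by run). The naive denominator of the first fold rests on single counts, so its size is less certain than its direction.

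Eomes was low in 3 of the 4 states and was raised in reactivated TH1 cells. Naive libraries had 0.811, 0.616, 0.498, 0.613, 1.10 and 0.376 CPM of Eomes, and TH1 effector libraries 0.813, 1.18, 1.41, 0.532, 1.50 and 1.02 CPM. Reactivated TH1 libraries had 44.1, 62.3, 71.4, 35.0, 46.9 and 65.1 CPM, and the lowest of them exceeded every library of the other states. Their mean of 54.1 ± 14.2 CPM (SD, n = 6) was 49.9-fold above the TH1 effector mean in the model (log2 5.64, SE 0.61, adjusted p = 4.72e-11; 5.67 and 5.61 by run). Only 0.644% of tested genes rose at least as far in that comparison. TH1 differentiation itself gave no call for Eomes (log2 0.70, SE 0.61, adjusted p = 0.241), with means of 0.670 ± 0.257 CPM in naive and 1.08 ± 0.368 CPM in TH1 effector cells. When only the naive and TH1 effector libraries entered the model, Eomes passed (log2 0.69, adjusted p = 0.0371).

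Relative to their mean, the activated naive libraries spread more in Eomes (1.72 ± 1.37 CPM, SD, n = 6) than those of any other state. They had 0.134, 1.54, 3.11, 0.318, 1.80 and 3.43 CPM, so numbers 1 and 4 lay below every naive library while the other 4 lay above every one. The difference from naive cells passed the threshold (log2 1.33, SE 0.61, adjusted p = 0.0238; 1.30 and 1.38 by run). This call was lost without number 2 (adjusted p = 0.0643), without number 3 (0.153) and without number 6 (0.139), and with leaving out any 1 number the log2 change ran from 0.93 to 1.67. It was also lost within each run (adjusted p = 0.142 and 0.131) and when only the naive and activated naive libraries entered the model (adjusted p = 0.0668).

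**Figure D1:**
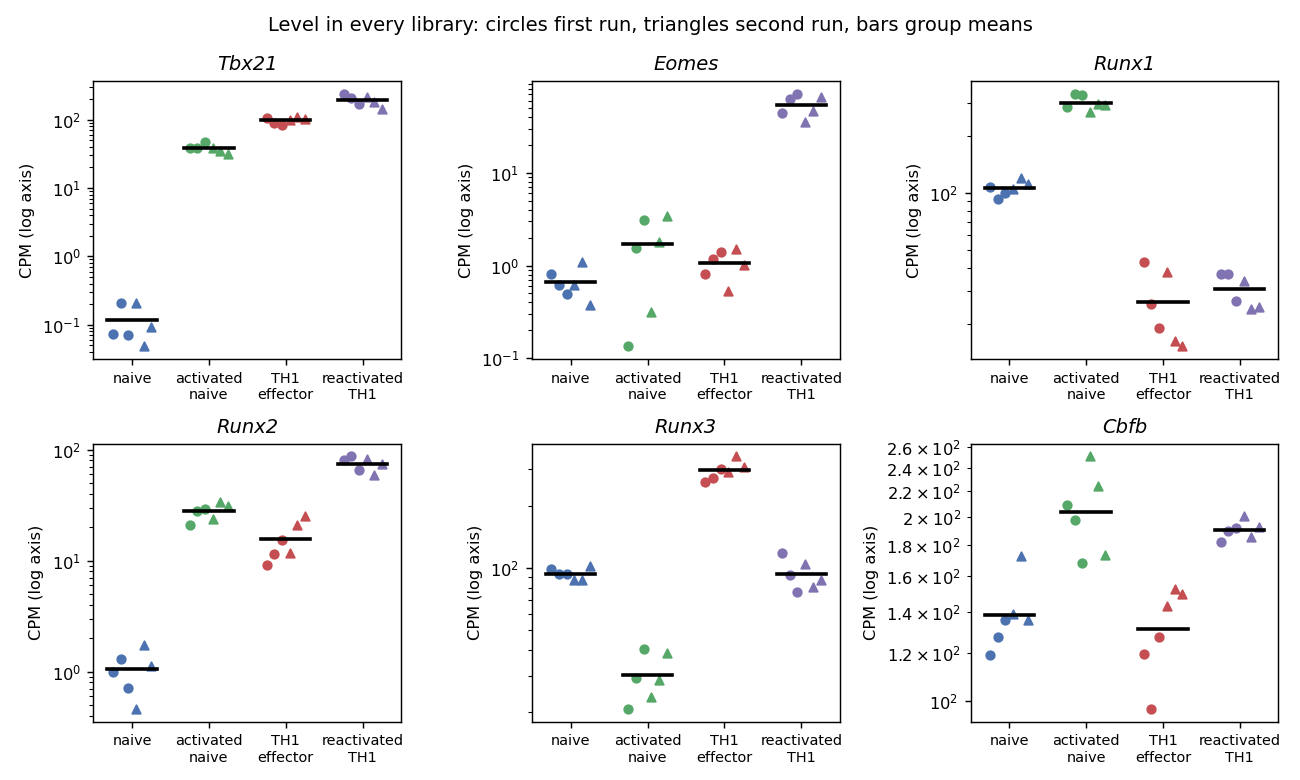
Level of each of the 6 genes in every library, in CPM on a log axis, by cell state; circles are libraries of the first run, triangles those of the second, and bars are group means. Tbx21 separates the 4 states without overlap, Eomes is high only among the reactivated TH1 libraries (35.0 to 71.4 CPM), and Runx3 is lowest in activated naive and highest in TH1 effector cells.

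Runx1 was highest after activation of naive cells and lowest in both TH1 states. Naive libraries had 107, 92.9, 99.5, 105, 119.6 and 112 CPM of Runx1, activated naive libraries 285, 337, 332, 268, 298 and 291 CPM. TH1 effector libraries had 43.0, 25.8, 19.1, 37.9, 16.4 and 15.3 CPM, and reactivated TH1 libraries 37.3, 37.2, 26.8, 34.0, 24.2 and 24.7 CPM. Both TH1 states lay below every naive library and overlapped each other. Runx1 rose 2.83-fold on activation of naive cells (log2 1.50, SE 0.21, adjusted p = 2.81e-07; 1.66 and 1.38 by run) and was lower by log2 −2.02 in TH1 effector than in naive cells (adjusted p = 4.67e-09; −1.74 and −2.28 by run). Reactivation of TH1 cells gave no call (log2 0.23, SE 0.21, adjusted p = 0.3). Reactivated TH1 cells were below activated naive cells by log2 −3.30 (adjusted p = 3.03e-12). Of tested genes, 0.922% were lower by at least as much.

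Runx3 moved opposite to Runx1 in naive activation and in TH1 differentiation. Naive libraries had 98.6, 93.1, 93.8, 87.9, 87.2 and 102 CPM of Runx3, and activated naive libraries 20.7, 29.4, 40.7, 23.7, 28.7 and 38.7 CPM. TH1 effector libraries had 260.4, 273, 302, 291, 347 and 309 CPM, and reactivated TH1 libraries 118, 92.7, 76.1, 105, 80.5 and 87.8 CPM. Activated naive libraries were the lowest, TH1 effector libraries the highest, and the naive and reactivated TH1 libraries overlapped. Runx3 fell on activation of naive cells (log2 −1.63, SE 0.14, adjusted p = 7.78e-11; −1.66 and −1.58 by run) and rose 3.17-fold in TH1 differentiation (log2 1.66, SE 0.14, adjusted p = 3.9e-11; 1.58 and 1.77 by run). On reactivation it fell again (log2 −1.67, SE 0.14, adjusted p = 4.94e-11; −1.58 and −1.78 by run). Means of 93.8 ± 5.81 CPM in naive and 93.2 ± 15.6 CPM in reactivated TH1 cells (SD, n = 6) gave no call (log2 −0.01, SE 0.14, adjusted p = 0.956).

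Runx2 rose on both stimulations. Naive libraries had 0.996, 1.30, 0.712, 0.459, 1.73 and 1.13 CPM of Runx2, activated naive libraries 21.0, 28.0, 29.5, 23.8, 34.1 and 31.3 CPM. TH1 effector libraries had 9.23, 11.5, 15.2, 11.7, 21.0 and 25.3 CPM, and reactivated TH1 libraries 80.7, 87.0, 65.1, 81.6, 58.9 and 73.8 CPM. All reactivated TH1 libraries lay above all others, and all naive libraries below all others. The rise was 26.2-fold in naive cells (log2 4.71, SE 0.27, adjusted p = 4.98e-14; 4.69 and 4.76 by run) and 4.87-fold in TH1 cells (log2 2.29, SE 0.27, adjusted p = 4.27e-10; 2.66 and 1.90 by run). TH1 effector cells kept 14.5-fold more Runx2 than naive cells (log2 3.85, adjusted p = 2.81e-12; 3.60 and 4.11 by run). Their difference from activated naive cells, whose libraries they overlap, was log2 −0.86 (adjusted p = 0.000331). By run it was −1.08 and −0.65, and in the later of these it lost its call (adjusted p = 0.0592).

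Cbfb, the shared partner, varied least. Naive libraries had 119, 127, 136, 139, 172 and 136 CPM, activated naive libraries 209, 198, 167.9, 251, 225 and 173 CPM, TH1 effector libraries 119, 97.1, 127, 143, 152 and 149 CPM, and reactivated TH1 libraries 182, 189, 192, 201, 185 and 193 CPM. Cbfb was higher in both stimulated states than in the unstimulated state they came from, with naive number 5 above the lowest activated naive library. The rise was 1.48-fold in naive cells (log2 0.56, SE 0.092, adjusted p = 1.14e-06; 0.58 and 0.56 by run) and 1.46-fold in TH1 cells (log2 0.55, SE 0.092, adjusted p = 2.24e-06; 0.68 and 0.40 by run). TH1 differentiation gave no call (log2 −0.08, SE 0.092, adjusted p = 0.398).

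Levels of different genes were compared per kilobase of exon, a scale that depends on the annotation's exon length. In naive cells Cbfb came first (39.7 ± 5.24 CPM per kilobase, SD, n = 6), then Runx3 (18.7 ± 1.16) and Runx1 (8.82 ± 0.777), with Eomes (0.161 ± 0.0620), Runx2 (0.119 ± 0.0505) and Tbx21 (0.0466 ± 0.0282) far below. Libraries of neighbours among those last 3 overlapped. In activated naive cells the order was Cbfb (58.6 ± 9.04), Runx1 (25.1 ± 2.26), Tbx21 (15.4 ± 2.17), Runx3 (6.07 ± 1.59), Runx2 (3.16 ± 0.548) and Eomes (0.414 ± 0.329). TH1 effector cells had Runx3 first (59.4 ± 6.09), then Tbx21 (39.7 ± 4.18) and Cbfb (37.7 ± 6.08), which overlapped, then Runx1 (2.18 ± 0.971) and Runx2 (1.77 ± 0.707), which overlapped too, and Eomes last (0.259 ± 0.0886). In reactivated TH1 cells Tbx21 came first (77.7 ± 14.0), then Cbfb (54.7 ± 1.86), Runx3 (18.6 ± 3.11), Eomes (13.0 ± 3.41), Runx2 (8.43 ± 1.22) and Runx1 (2.55 ± 0.512), with overlap between neighbours from Tbx21 to Runx2 except between Cbfb and Runx3.

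Activation of naive cells asks what the first 6 hours of stimulation do. All 6 genes passed the threshold of 0.05 on the adjusted p: 5 rose and 1, Runx3, fell. Of all tested genes, 41.3% rose and 40.5% fell in the same comparison, so passing the threshold was the common outcome. Tbx21 rose farther than nearly all genes, since 0.397% of them rose at least as far, and for Runx2 this share was 1.96%. For Cbfb it was 33.4%.

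TH1 differentiation was read from TH1 effector against naive cells. Tbx21, Runx2 and Runx3 rose, Runx1 fell, and Eomes and Cbfb did not pass, that is 3 higher, 1 lower and 2 without a call beside 44.6% higher and 40.3% lower among all tested genes. The Tbx21 difference was log2 9.68 (SE 0.27, adjusted p = 1.17e-22; 9.60 and 9.77 by run). The share of tested genes that rose at least as far was 1.04% for Tbx21, 10.1% for Runx2 and 18.5% for Runx3. For Runx1, 5.22% of tested genes fell at least as far.

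Reactivation of TH1 cells raised Tbx21, Eomes, Runx2 and Cbfb and lowered Runx3, so 4 members were higher, 1 lower and 1, Runx1, without a call. Among all tested genes 39.9% were higher and 39.8% lower. Eomes had the largest change of the 6, and next to it Runx2, with 3.53% of tested genes rising at least as far as Runx2. Compared with activated naive cells, reactivated TH1 cells had more Tbx21 (5.04-fold, adjusted p = 1.01e-15), Eomes (32.1-fold, adjusted p = 1.79e-10), Runx2 (2.69-fold, adjusted p = 5.11e-07) and Runx3 (3.08-fold, adjusted p = 1.28e-10), less Runx1, and no call for Cbfb (log2 −0.09, adjusted p = 0.306). These counts of 4 higher and 1 lower stand beside 43.4% higher and 36.4% lower of all tested genes. The labels name no stimulus for the naive cells and macrophages with antigen for the TH1 cells, so the cell state and the kind of stimulation cannot be told apart in this comparison.

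TH1 effector against activated naive cells gave 5 calls of 6, 2 higher and 3 lower, beside 86.9% of tested genes called in either direction. Reactivated TH1 against naive cells gave 5 calls as well, 4 higher and 1 lower, beside 87.6% of tested genes. Runx3 was the member without a call there and Eomes in the former.

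**Figure D2:**
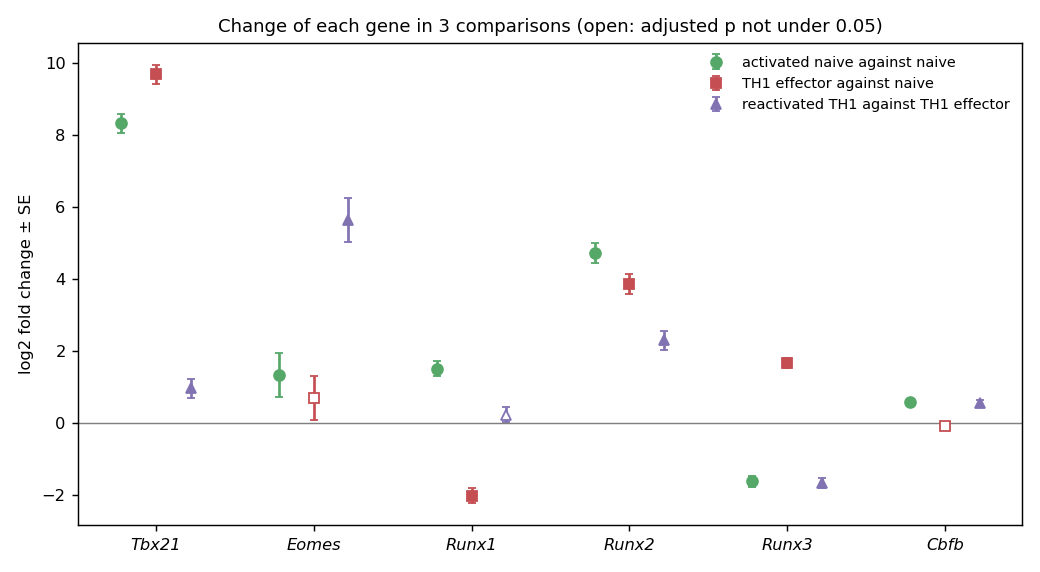
Log2 fold change of each gene with its SE in 3 comparisons, namely activation of naive cells, TH1 differentiation and TH1 reactivation; open symbols did not pass. Runx1 and Runx3 lie on opposite sides of 0 in the first pair of comparisons, and Eomes stands out for its 5.64 on reactivation beside 0.70 in differentiation.

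Whether naive and TH1 cells responded alike to their 6-hour stimulation was tested as an interaction, the TH1 response minus the naive response. It passed for 4 members, beside 68.0% of tested genes called in either direction. As a fold change, the rise of Tbx21 was smaller in TH1 cells (difference log2 −7.35, SE 0.38, adjusted p = 1.19e-17) and so was that of Runx2 (−2.43, SE 0.38, adjusted p = 8.19e-07). That order depends on the scale. Mean Tbx21 went from 0.116 to 38.3 CPM in naive and from 98.8 to 193 CPM in TH1 cells, and mean Runx2 from 1.05 to 28.0 and from 15.7 to 74.5 CPM. The naive Tbx21 level rests on 17 counts in all. Runx1 responded less in TH1 than in naive cells (−1.28, SE 0.29, adjusted p = 0.000335). The Eomes response was larger in TH1 cells (4.31, SE 0.87, adjusted p = 1.83e-05). For Runx3, which fell in both, the difference was −0.04 (SE 0.20, adjusted p = 0.858), and for Cbfb, which rose in both, −0.02 (SE 0.13, adjusted p = 0.914). A missing call does not show equal responses.

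Ratios within a library do not depend on how libraries are scaled. Of 15 comparisons of 3 ratios per kilobase of exon, made by two-sided exact permutation tests of 6 against 6 libraries, 12 had an adjusted p under 0.05, and 0.002165 was the smallest p such a test can give. The Runx3 to Runx1 ratio had geometric means of 2.13 for naive (library range 1.75 to 2.41), 0.236 for activated naive (0.175 to 0.319), 29.4 for TH1 effector (14.6 to 50.8) and 7.34 for reactivated TH1 cells (5.99 to 8.54). No libraries overlapped between any pair of groups, and all 6 differences had p = 0.002165 by the exact test, adjusted p = 0.002952. By run, the mean log2 ratios were 1.20 and 0.98 for naive, −2.18 and −1.997 for activated naive, 4.59 and 5.16 for TH1 effector, and 2.76 and 2.995 for reactivated TH1 libraries.

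The same switch appears in the share of each paralog in the summed RUNX transcripts per kilobase. Naive cells had 31.9% ± 2.43 Runx1, 0.430% ± 0.183 Runx2 and 67.7% ± 2.50 Runx3 (SD, n = 6). Activated naive cells had 73.3% ± 3.69 Runx1, 9.21% ± 1.21 Runx2 and 17.5% ± 3.14 Runx3. TH1 effector cells had 3.55% ± 1.81 Runx1, 2.75% ± 0.923 Runx2 and 93.7% ± 1.17 Runx3. After reactivation Runx2 made up 28.6% ± 2.13, Runx3 62.9% ± 2.52 and Runx1 8.59% ± 0.832.

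**Figure D3:**
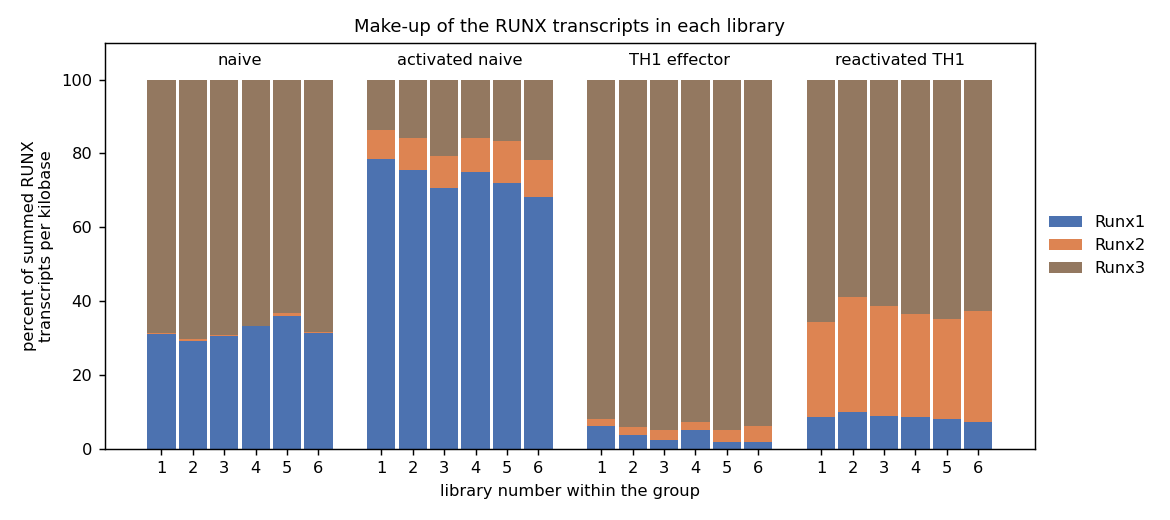
Share of Runx1, Runx2 and Runx3 in their summed transcripts per kilobase of exon, one bar for each library, grouped by cell state. Runx1 holds most of the bar in activated naive libraries (68.2% to 78.4%), Runx3 in all others, and Runx2 reaches 25.6% to 31.3% only among the reactivated TH1 libraries.

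The summed RUNX transcripts were compared with Cbfb because the proteins bind DNA as pairs. Their ratio was 0.702 for naive, 0.589 for activated naive, 1.69 for TH1 effector and 0.537 for reactivated TH1 cells. TH1 effector cells differed from each other state (adjusted p = 0.002952, exact permutation tests), and all 6 of their libraries (1.53 to 2.08) lay above all others. Reactivated TH1 and naive cells differed by log2 −0.39 (exact p = 0.01948, adjusted p = 0.02435), a call lost without number 2 (adjusted p = 0.0595), without number 3 (0.0694) and without number 6 (0.0893). Naive and activated naive cells gave no call (adjusted p = 0.1739, exact test), and on counts not divided by exon length that difference changed sign (log2 0.28 in place of −0.25). Reactivated TH1 and activated naive cells gave none either (adjusted p = 0.4502, exact test), although on counts without exon length reactivated TH1 cells were lower (log2 −0.78, adjusted p = 0.00541 by the same exact test).

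Tbx21 exceeded Eomes in every stimulated or differentiated library, by a ratio that fell on reactivation. The ratio per kilobase was 161.5 in TH1 effector (98.2 to 313) and 6.06 in reactivated TH1 cells (3.66 to 10.2), a log2 difference of −4.74 (−4.57 and −4.90 by run; adjusted p = 0.002952, exact test). Activated naive libraries ranged from 15.3 to 477 with a mean of 61.1. Their difference from TH1 effector cells did not pass (log2 1.40, adjusted p = 0.1299, exact test) but did without number 1 (log2 1.91, adjusted p = 0.0458, exact test). No ratio was formed for naive cells, where some libraries had fewer than 3 Tbx21 counts.

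Reactivated TH1 libraries differed among themselves in a way that Tbx21 and Eomes did not share. In the first run Tbx21 was 240.99, 208 and 172 CPM in numbers 1, 2 and 3, where Eomes was 44.1, 62.3 and 71.4 CPM. In the second run Tbx21 was 213, 183 and 143 CPM in numbers 4, 5 and 6, where Eomes was 35.0, 46.9 and 65.1 CPM. In each run the library with the most Tbx21 thus had the least Eomes and the one with the least Tbx21 the most Eomes. Runx3 was highest in numbers 1 and 4, with 118 and 105 CPM against 76.1 to 92.7 CPM in the others. Nr4a1, the gene whose promoter drives the reporter, also was highest in numbers 1 and 4 (1918 and 1088 CPM), against 776 and 245 CPM in the rest of the first run and 403 and 309 CPM in the rest of the second. Ifng, the TH1 cytokine gene, was 19064, 15554 and 9827 CPM in numbers 1 to 3, and 14400.5, 9168 and 9685 CPM in numbers 4 to 6. With 3 libraries in a run these relations were not tested, and they were picked out after the values were seen.

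**Figure D4:**
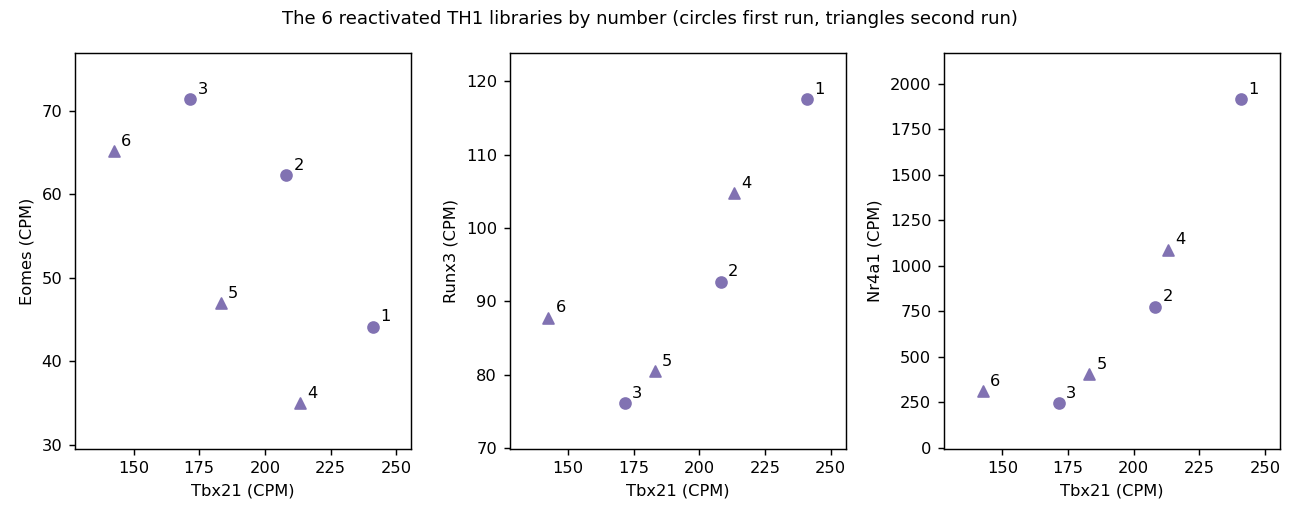
Eomes, Runx3 and Nr4a1 against Tbx21 in the 6 reactivated TH1 libraries, all in CPM; points carry the library number, circles are the first run and triangles the second. Within each run Eomes is lowest where Tbx21 is highest (numbers 1 and 4), while Runx3 and Nr4a1 are highest there.

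Genes known to be bound or raised by T-bet, Runx3 or Eomes in TH1 or cytotoxic cells made up a list of 26, of which 25 were tested. On activation of naive cells 15 rose, 3 fell and 7 gave no call (median log2 2.59, against 0.0046 for all tested genes). For the counts of this list, the shares of all tested genes were 41.3% higher and 40.5% lower on activation of naive cells. They were 44.6% and 40.3% in TH1 differentiation, and 39.9% and 39.8% on reactivation. In reactivated TH1 against activated naive cells they were 43.4% and 36.4%. Cxcr3, a chemokine receptor gene of TH1 cells, rose from 0.0736 to 45.9 CPM and the chemokine gene Xcl1 from 0.0442 to 41.3 CPM. Il18r1, an interleukin-18 receptor subunit, fell from 140.5 to 1.40 CPM (log2 −6.68, adjusted p = 6.69e-16), and Prf1, which encodes perforin, fell from 25.0 to 10.1 CPM. Ifng stayed under 1 CPM in all 6 activated naive libraries (0.112 against 0.482 CPM on average, adjusted p = 0.0178).

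In TH1 differentiation 22 of the 25 rose, 1 fell and 2 gave no call (median log2 6.50, against 0.057 for all tested genes). Gzmb, the granzyme B gene, rose from 0.0260 to 864 CPM and Ifng from 0.112 to 198 CPM, while Prf1 was the gene that fell, to 4.88 CPM (log2 −2.34, adjusted p = 1.32e-08). On reactivation 16 rose, 7 fell and 2 gave no call (median 1.48, against −0.0023). The chemokine genes Ccl3 and Xcl1 reached 5540 and 2763 CPM from 0.790 and 0.0221 CPM, and Ifng reached 12950.0 CPM. The chemokine receptor gene Cxcr6 was among those that fell, from 15.1 to 4.91 CPM (log2 −1.62, adjusted p = 5.98e-08). Against activated naive cells, reactivated TH1 cells had 22 of the 25 higher, 1 lower and 2 without a call (median 6.45, against 0.079), and the lower gene was Cxcr3 (45.9 against 35.8 CPM, adjusted p = 0.00772). Many genes of this list were first described in TH1 cells, so their direction in TH1 differentiation is not independent of how the list was made.

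Of the genes of this list, 21 had a promoter in the RefSeq table, and 13 of them (61.9%) held the RUNX letters within 250 bases before a start, against 20.9% of 27025 genes. The T-box letters were found in 3 of the 21 (14.3%), against 5.30% of genes. These genes were listed as known to be bound or raised by T-bet, Runx3 or Eomes. Neither share is therefore independent of how the list was made, and neither was tested. Stretches around the RUNX letters of 6 of these 13 genes are shown with the 6 letters in capitals, on the gene's strand. Those of the others are not shown, among them Cxcr6 and Il12rb2, whose levels are also given here.
Cxcr3, chrX:101734237-101734272, - strand: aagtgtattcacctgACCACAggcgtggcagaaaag
Gzmb, chr14:56262407-56262442, - strand: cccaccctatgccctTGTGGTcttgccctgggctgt
Gzmb, chr14:56262348-56262383, - strand: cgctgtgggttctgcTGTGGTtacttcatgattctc
Prf1, chr10:61297691-61297726, + strand: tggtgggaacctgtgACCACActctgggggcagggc
Ccl3, chr11:83649480-83649515, - strand: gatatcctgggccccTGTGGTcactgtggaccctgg
Xcl1, chr1:164935729-164935764, - strand: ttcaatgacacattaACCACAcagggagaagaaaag
Havcr2, chr11:46454870-46454905, + strand: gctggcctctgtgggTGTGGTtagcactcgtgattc
These matches lay 110 bases before the start in Cxcr3, 93 and 34 in Gzmb, 130 in Prf1, 122 in Ccl3, 227 in Xcl1 and 46 in Havcr2, which encodes TIM-3 and rose from 3.50 CPM in TH1 effector to 152 CPM in reactivated TH1 cells. The genes with these letters did not move in 1 direction: on activation of naive cells Cxcr3 and Xcl1 rose while Prf1 fell. In the list of RUNX-bound loci 5 of 15 promoters held the letters (33.3%), in the list of opposed lineages 5 of 16 (31.3%), in the list of signals before T-bet 4 of 15 (26.7%) and in that of cofactors 6 of 24 (25.0%). A base may belong to a match of both motifs.

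Receptor and JAK-STAT genes that act before T-bet were 19, all tested. On activation of naive cells 8 rose, 10 fell and 1 gave no call (median log2 −0.70). Il2ra, the high-affinity interleukin-2 receptor subunit, rose from 23.0 to 1855 CPM (81.0-fold, adjusted p = 3.37e-27) and Il12rb2, a subunit of the interleukin-12 receptor, from 0.654 to 14.2 CPM. The interferon-gamma receptor gene Ifngr2 fell from 80.5 to 11.6 CPM (adjusted p = 1.73e-08). In TH1 differentiation 8 rose, 9 fell and 2 gave no call (median −0.12), and Il12rb2 reached 889 CPM. On reactivation 7 rose, 11 fell and 1 gave no call (median −0.21). Stat5a, a transcription factor of interleukin-2 signalling, rose from 91.5 to 439 CPM (adjusted p = 6.95e-11) and the kinase gene Jak2 from 179 to 607 CPM, while the receptor gene Ifngr1 fell from 483 to 48.3 CPM (adjusted p = 1.04e-15). Against activated naive cells, reactivated TH1 cells had 11 higher, 7 lower and 1 without a call (median 0.38). The counts of this list stand beside 41.3% higher and 40.5% lower of all tested genes on activation of naive cells. These shares were 44.6% and 40.3% in TH1 differentiation, 39.9% and 39.8% on reactivation, and 43.4% and 36.4% between the 2 stimulated states.

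T cell loci known to be bound by RUNX and CBF-beta were 20, all tested. On activation of naive cells 6 rose, 9 fell and 5 gave no call (median log2 0.24). Cd4, which RUNX proteins are known to silence in CD8 T cells, fell from 926 to 132 CPM (log2 −2.81, adjusted p = 5.38e-23). Zbtb7b, the gene of the helper-lineage factor ThPOK and another known RUNX target, fell from 286 to 37.2 CPM (log2 −2.94, adjusted p = 7.99e-13), and Il7r, the interleukin-7 receptor gene, from 419.6 to 1.67 CPM. In TH1 effector cells Cd4 was 459 CPM and Zbtb7b 100.1 CPM, both lower than in naive cells (log2 −1.01 and −1.52), and the list had 6 higher, 10 lower and 4 without a call (median −0.52). On reactivation 11 rose, 5 fell and 4 gave no call (median 0.22). The cytokine genes Il3 and Il2 rose to 953 and 409 CPM from 0.175 and 0.0571 CPM. Cd4 had no call there (459 and 427 CPM, adjusted p = 0.11), and Zbtb7b was lower by log2 −0.38 (adjusted p = 0.0478). Against activated naive cells the counts were 12 higher, 5 lower and 3 without a call (median 0.84). All tested genes had shares of 41.3% higher and 40.5% lower on activation of naive cells. These shares were 44.6% and 40.3% in TH1 differentiation, 39.9% and 39.8% on reactivation, and 43.4% and 36.4% between the 2 stimulated states.

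Cd8a, a gene that Runx3 is known to favour in CD8 T cells, averaged 0.840 CPM in naive and 0.369 CPM in TH1 effector libraries, where Runx3 was highest, and 1.33 CPM in reactivated TH1 libraries. Il4, which T-bet with Runx3 is known to silence, had no count in naive cells and averaged 0.0113, 0.0366 and 1.05 CPM in the other states.

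**Figure D5:**
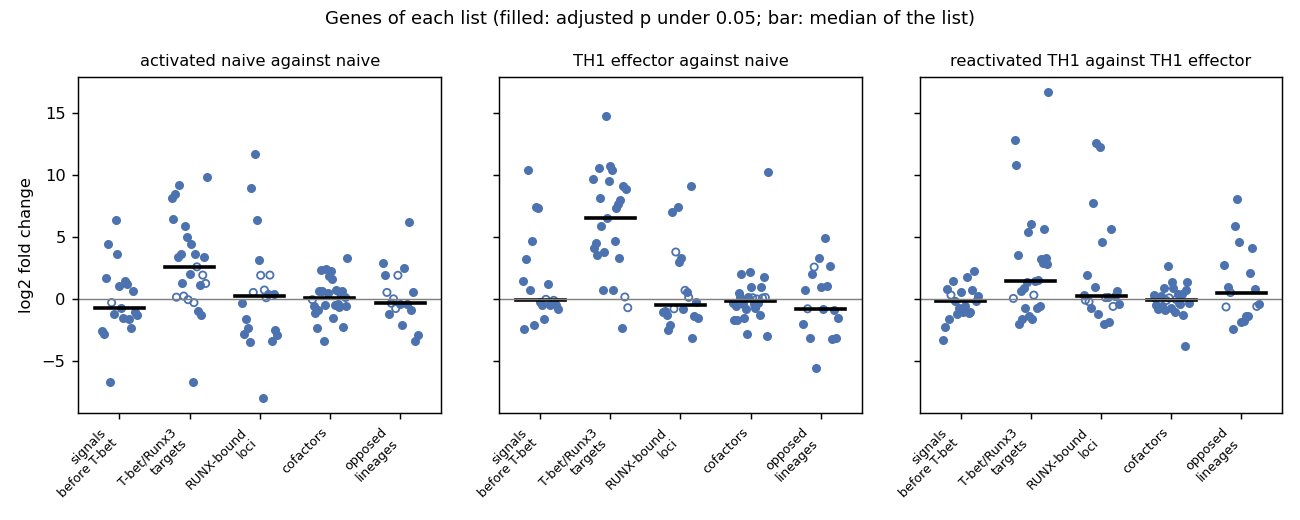
Log2 fold change of every tested gene in 5 lists (signals before T-bet, targets of T-bet or Runx3, RUNX-bound loci, cofactors, opposed lineages) in 3 comparisons; each point is a gene, filled where it passed, and bars are list medians. The median of the T-bet and Runx3 targets lies at 2.59, 6.50 and 1.48, and those of the other lists between −0.79 and 0.51.

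Of 30 genes for proteins that work with RUNX or T-bet at chromatin or set their stability, 26 were tested. On activation of naive cells 13 rose, 12 fell and 1 gave no call (median log2 0.05). Kdm6b, which encodes a histone H3 lysine demethylase known to bind T-bet, rose from 211 to 1134 CPM (log2 2.43, adjusted p = 3.82e-10) and Ets1, a DNA-binding partner of RUNX1, fell from 1923 to 382 CPM (log2 −2.33, adjusted p = 2.48e-17). In TH1 differentiation 9 rose, 13 fell and 4 gave no call (median −0.16). Kdm6b fell to 29.4 CPM and the corepressor gene Tle4, whose product binds RUNX proteins, fell from 103 to 13.2 CPM. On reactivation 10 rose, 12 fell and 4 gave no call (median −0.09). Kdm6b rose to 188 CPM (log2 2.68, adjusted p = 1.53e-10) and Tle4 to 33.4 CPM, while another corepressor gene, Tle2, fell from 10.2 to 0.725 CPM. Against activated naive cells 5 were higher, 15 lower and 6 without a call (median −0.26). Beside these counts, 41.3% of all tested genes were higher and 40.5% lower on activation of naive cells. The shares were 44.6% and 40.3% in TH1 differentiation, 39.9% and 39.8% on reactivation, and 43.4% and 36.4% between the 2 stimulated states.

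Factors and cytokines of other helper fates, which T-bet or RUNX proteins are known to oppose, numbered 20, of which 17 were tested. On activation of naive cells 5 rose, 7 fell and 5 gave no call (median log2 −0.35). Bcl6, the follicular helper factor gene, rose from 31.1 to 234.6 CPM, and Gata3, the TH2 factor gene, fell from 60.8 to 26.7 CPM (log2 −1.19, adjusted p = 0.00164). In TH1 differentiation 7 rose, 8 fell and 2 gave no call (median −0.79). Gata3 fell to 6.92 CPM (log2 −3.13, adjusted p = 3.07e-08), Bcl6 to 7.96 CPM and Tcf7, which encodes TCF-1, from 2355 to 269.6 CPM, while Maf rose from 3.10 to 89.8 CPM. On reactivation 8 rose, 6 fell and 3 gave no call (median 0.51). Bcl6 rose to 51.0 CPM (log2 2.71, adjusted p = 4.38e-15), and Gata3 gave no call (9.89 CPM, adjusted p = 0.173). Against activated naive cells 6 were higher, 7 lower and 4 without a call (median −0.34). Beside these counts, 41.3% of all tested genes were higher and 40.5% lower on activation of naive cells. The shares were 44.6% and 40.3% in TH1 differentiation, 39.9% and 39.8% on reactivation, and 43.4% and 36.4% between the 2 stimulated states.

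Of the 16 names of other T-box genes looked for, 15 were in the tables and 3 were tested. Mga, which combines a T-box with a partner domain for MAX, averaged 316, 391, 194 and 267 CPM in naive, activated naive, TH1 effector and reactivated TH1 libraries. Tbx6 averaged 22.1 CPM in naive cells and 0.537, 1.83 and 0.478 CPM in the others, and Tbx2 stayed under 1 CPM on average in all 4 states.

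Eomes and T-bet mark natural killer and CD8 T cells as well, so markers of those cells were read beside them. The 17 markers summed to 55.1 to 82.6 CPM for naive, 18.3 to 27.1 for activated naive, 48.4 to 78.4 for TH1 effector and 171.8 to 267.5 for reactivated TH1 libraries. In the last, where Eomes was high, the sum was mostly Cd160 (means 1.15 CPM before and 122 CPM after reactivation), Prf1 (4.88 and 35.9 CPM) and Klrk1 (29.1 and 28.8 CPM). Cd8a (0.369 and 1.33 CPM), Klri2 (0.549 and 0.979 CPM), Itga1 (0.0519 and 0.169 CPM), Fcer1g (0.226 and 0.971 CPM) and Gzma (3.72 and 4.11 CPM) were higher on average too. Klrd1 (10.961 and 9.07 CPM) and Cd8b1 (4.67 and 3.9968 CPM) were lower. Of the 10 of these markers that were tested, reactivation gave 5 higher, 1 lower and 4 without a call, beside 39.9% higher and 39.8% lower among all tested genes. The natural killer genes Klra8 and Klra4 were at 0 in all 4 states, and Ncr1 had 1 count in all 24 libraries. The 17 macrophage markers in the tables summed to 7.64 to 11.5, 10.2 to 12.1, 4.97 to 6.80 and 18.1 to 24.6 CPM in the same order. Lyz2 (0.0697 CPM before and 5.98 CPM after) and Cybb (1.20 and 4.52 CPM) led them after culture with macrophages. Csf1r, Fcgr1, C1qa, C1qb, C1qc and Msr1 had no count in TH1 effector libraries and averaged 0.724, 0.291, 0.313, 1.50, 0.90024 and 0.608 CPM in reactivated TH1 libraries. Lyz1 and Marco were at 0 in all 4 states. The 9 B cell markers summed to 1.11 to 4.13, 0.369 to 0.716, 5.98 to 33.2 and 1.23 to 2.41 CPM, and the 8 dendritic cell markers to 0.235 to 0.516, 0.833 to 1.91, 1.51 to 3.60 and 7.19 to 10.7 CPM, of which Zbtb46 gave 7.71 CPM in reactivated TH1 libraries. The part of such cells in the member levels was not tested.

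Genes with the pattern most like each member were ranked by Pearson's r of log2 CPM over the 24 libraries, among tested genes with at least 10 CPM in a group mean. These are descriptions: the libraries share 4 groups, and group differences make most of each r. Closest to Tbx21 were Pak6 (0.994), Tcp1 (0.994), Dab2ip (0.994), Btf3 (0.993) and Dusp4 (0.992), and least like it Pan3 and Ampd3 (both −0.99). Closest to Eomes were Kdm8 (0.955), Stat5a (0.954), Ccl9 (0.952), Il3 (0.951) and 1810009J06Rik (0.945), and least like it Itm2b and Rb1 (both −0.94). Closest to Runx1 were Dopey2 (0.973), Folr4 (0.968), Gripap1 (0.966), Gpr83 (0.964) and Zfp36l1 (0.964), and least like it Tmem176a (−0.975) and Nedd4 (−0.975). Closest to Runx2 were Npm1, Ccdc50, Ptger2, Arl1 and Srxn1 (all 0.98), and least like it Acss1 (−0.981) and Gpd1l (−0.981). Closest to Runx3 were Hrsp12 (0.986), Grn (0.986), Sema4f (0.985), Susd3 (0.983) and Rras2 (0.98), and least like it Pknox1 (−0.985) and Sh2b3. Closest to Cbfb were Papola (0.949), Exoc5 (0.943), Ubqln1 (0.937), Eif4g2 (0.934) and Vapa (0.934), and least like it Fbxo21 (−0.925) and Ssh3 (−0.919).

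Among the members themselves, the same r was lowest for Runx1 with Runx3 (−0.837) and Runx3 with Cbfb (−0.702). It was highest for Tbx21 with Runx2 (0.93) and Eomes with Runx2 (0.684), while Tbx21 with Eomes had 0.541. Tbx21 with Runx3 had 0.118.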

How the data were processed

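The authors deposited, per the labels, whole-number read counts per gene for each of 24 mouse CD4 T cell libraries. They were made with a stranded TruSeq kit. STAR, HTSeq, DESeq2 and mm10 are named in the submitters' processing notes, with neither roles nor versions. The annotation used and the strand setting of the counting: not given in the sources used here. The 5 summary lines of each table (reads without a feature came to 13.2% to 24.5% of all its counts, summary lines included) stayed out of every analysis.

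Groups came from the labels and the run from the flow cell named in each file. With edgeR 4.0.16 in R 4.3.3, 12584 of 23420 genes passed filterByExpr, libraries were scaled by TMM, and 1 robust quasi-likelihood model with group and run was fitted to all 24 libraries. Adjusted p-values are Benjamini-Hochberg over all tested genes, threshold 0.05, and a log2 fold change is from that model. SEs come from the spread of log2 CPM (prior count 0.125) within group and run, pooled over groups. They therefore also carry the spread of groups outside a comparison, and the p-values were not computed from them. Ratios were compared by two-sided exact permutation tests, adjusted over 15 comparisons. Exon lengths are from GENCODE M21 and promoters from RefSeq. The scripts were tested on simulated data. Python 3.11.15 with pandas 2.3.3 and matplotlib 3.10.9 was used for summaries and figures.

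The members, gene lists and tests were chosen with earlier results of these data known. Every member is named. From each list, up to 2 genes a direction with the largest change among genes reaching a group mean of 10 CPM may be named, plus Ifng, Cd4, Zbtb7b, Il4, Cd8a, Gata3, Bcl6 and Tcf7; some genes that the rule names are not reported here. Markers, Nr4a1, Havcr2 and the reappearance of a gene named in another comparison fall outside that rule and were chosen after their values were seen. Named list and marker genes with exon bases shared with a gene on the other strand (21 to 1519 bases) are Il12rb2, Zbtb7b, Kdm6b, Gata3, Bcl6, Maf, Xcl1, Stat5a, Tle2, Cd160 and Csf1r. With a gene on their own strand, Ifng shares 336 exon bases, Itga1 685 and Gata3 77. The values of all these genes are uncertain to that extent. Alternatives were DESeq2 1.42.0, library-size scaling, other filters, no run term, only the groups compared, each run alone, a replicate block, each number left out and, added after the data were seen, numbers 5 and 6 both left out.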

Additional observations from a re-analysis of the deposited data

Results flagged for a closer look

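Each of the following was singled out because the response to 6 hours of stimulation differed between TH1 and naive cells by the interaction test. Of all tested genes, 68.0% passed that test in either direction, so passing it was the common outcome. The TH1 response minus the naive response was log2 −7.35 for Tbx21, −2.43 for Runx2 and −1.28 for Runx1, and 4.31 for Eomes. Tbx21 started from 0.116 CPM in naive and 98.8 CPM in TH1 effector cells, and Runx2 from 1.05 and 15.7 CPM. Eomes started from 0.670 and 1.08 CPM, and Runx1 from 106 and 26.2 CPM. The stimulus of the naive cells is not named and the TH1 cells met macrophages, so the kind of stimulation and the cell state cannot be told apart. No member or ratio in 35 groups of 6 libraries had a library far from the rest by Dixon's criterion, which chance meets in about 1 group in 20.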

How the results depend on the processing

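Over 942 values under other settings, the 7 counts of called genes stayed within 1.5 times, and 36 of 42 member results kept direction and call under every setting. Of 15 ratio results, 10 were counted as unchanged. These kept their direction under every setting, and their call in the settings that could give a call. Each run alone could not, because an exact test of 3 against 3 libraries cannot give a p under 0.05. The Eomes rise on activation of naive cells lost its call with only those groups fitted (log2 1.32), in the first run (1.30), in the second (1.38) and without numbers 5 and 6 (0.97, adjusted p = 0.183), with 0.93 to 1.67 when 1 number was left out. Eomes in TH1 effector against naive cells gained a call with only those groups (0.69, adjusted p = 0.0371). Runx2 in TH1 effector against activated naive cells lost its call in the second run (−0.65). Signs turned for Runx3 in reactivated TH1 against naive cells, the Runx3 and Cbfb interactions and 2 RUNX to Cbfb differences, none of which had a call. Runx3 in reactivated TH1 against naive cells gave 0.0046 in the first run, 0.00048 without numbers 5 and 6, and −0.11 to 0.046 with 1 number left out. The Runx3 interaction gave 0.084, 0.19 and −0.26 to 0.13 under the same settings, and the Cbfb interaction 0.10, 0.013 and −0.081 to 0.056, and 0.032 with library-size scaling. The Runx3 to Runx1 difference of reactivated TH1 and naive cells was 1.56 by the first run alone and 2.01 by the second. It kept its direction, and was left out of the 10 unchanged ratio results only for its size in these runs. For RUNX to Cbfb without exon lengths, activated naive against naive cells gave 0.28 and reactivated TH1 against activated naive cells −0.78 (a call). Its reactivated TH1 against naive difference was −0.36 without numbers 5 and 6 (adjusted p = 0.0714, exact test) and −0.42 to −0.34 with 1 number left out, and reactivated TH1 against activated naive −0.25 to 0.008982. Tbx21 to Eomes in TH1 effector against activated naive cells was 0.99 to 1.91. The cause was not tested. Library-size scaling in place of TMM moved the median over all tested genes by at most 0.15, in reactivated TH1 against naive cells (0.148 to −0.0049).

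Libraries of the same number in different groups had median residual correlations from 0.0406 to 0.202, and 11 of 24 libraries lay closest to their own number, while different numbers of the same run had medians from −0.2399 to −0.1241. Libraries of the same number were thus more alike than others in all 6 pairs of groups, a hint from the data. The rule set for pairing was a median above 0.1 in every pair of groups. Not every pair of groups met it, and the numbers were not taken as pairs. With a replicate block, 10336 genes passed for activated naive against naive cells in place of 10303, and Eomes there had log2 1.24.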

Other observations

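Activated naive and TH1 effector libraries of numbers 1 and 4, the numbers with the most Tbx21 in their run after reactivation, also lay at 1 end of their own groups for some members. In activated naive cells Eomes was 0.134 and 0.318 CPM in numbers 1 and 4, against 1.54 to 3.43 CPM in the others, and Runx3 was 20.7 and 23.7 CPM, against 28.7 to 40.7 CPM. In TH1 effector cells Runx1 was 43.0 and 37.9 CPM in numbers 1 and 4, against 15.3 to 25.8 CPM in the others, and Eomes was 0.813 and 0.532 CPM, against 1.02 to 1.50 CPM. Nr4a1 in activated naive cells was 11645 and 12800.5 CPM in numbers 1 and 4, against 7143 to 7883 CPM in the others, and in naive cells 801 and 496 CPM, against 239.2 to 385 CPM. TH1 effector cells did not share this order: Nr4a1 was lowest in number 1 (133 CPM, against 180.3 and 153 CPM in numbers 2 and 3), and number 4 had 413 CPM against 412 and 498 CPM in numbers 5 and 6. These numbers were picked out after the values were seen, and no test was made.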
